A study of Homo sapiens with 20 samples.

Results

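The sites described here were open in SW872 cells that expressed TAZ-CAMTA1, YAP-TFE3 or full-length CAMTA1, and had no peak in the cells of the 4 other vectors. Peaks of all 7 ATAC-seq lists that overlapped by at least 1 bp were merged into sites, and a site was kept as a member when it held a peak of each of these 3 lists and none of the empty vector (EV), TAZ4SA, YAP5SA or TFE3 lists. Of 372133 sites in all, 7996 were members (2.15%). Members were thus chosen by the peak calls themselves, so the strength and width of the peaks given below are descriptions of what was selected, and no test was run on them.

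ATAC-seq marks open chromatin by letting a transposase cut accessible DNA and sequencing the fragments. SW872 is an established human liposarcoma cell line, and all 20 libraries came from it. The cells had been transduced with a retrovirus and kept as pooled stable lines under G418 selection, so every protein was expressed from a vector on top of whatever the line makes itself. The groups were EV (3 libraries, of which the third is titled a redo), TAZ4SA (3) and YAP5SA (3), in which serines that the LATS kinases phosphorylate were changed to alanine, full-length CAMTA1 (3), full-length TFE3 (2), TAZ-CAMTA1 (3) and YAP-TFE3 (3), whose titles name YAP5SA as the YAP part. The deposited data gave 1 peak list per vector in hg19 coordinates, from 152702 peaks for TAZ4SA to 236893 for TAZ-CAMTA1. How the libraries were combined into a list is not stated and the read depth behind each list is unknown. No value below therefore has a replicate error, the intervals given for shares are Wilson 95% intervals that cover counting error only, and an effect of the vector cannot be told apart from a difference in depth. For RNA-seq of the same lines the cells with CAMTA1 sequence were harvested less dense than the others, and the density for ATAC-seq is not given in the sources used here.

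In the Hippo pathway, TAZ and YAP switch on growth genes when they reach the nucleus, where TEAD proteins hold them on chromatin. Both fusions drive epithelioid hemangioendothelioma, a vascular sarcoma, and join the TEAD-binding N terminus of TAZ or YAP to the C terminus of another protein. CAMTA1 is a calmodulin-binding transcription activator that is best known from the brain, and TFE3 is a basic helix-loop-helix factor of the MiT family. TAZ-CAMTA1 and full-length CAMTA1 thus have the C terminus of CAMTA1 in common, whereas YAP-TFE3 carries no CAMTA1 sequence.

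The first question was how often CAMTA1, compared with the other full-length proteins, was the only list to hold a site together with both fusions. With CAMTA1 there were 7996 such sites, with YAP5SA 3623, with EV 1882, with TFE3 1748 and with TAZ4SA 627. Full-length CAMTA1 and YAP5SA had lists of similar length (223651 and 230886 peaks), and the number with CAMTA1 was 2.21 times that with YAP5SA. TFE3, which provides the C terminus of YAP-TFE3, had a list of 156421 peaks, and per 1000 of them there were 11.2 such sites, against 35.8 per 1000 CAMTA1 peaks. List length alone does not make these 2 lists alike. TFE3 had 2 libraries and CAMTA1 3, and 1522 sites held TFE3 alone, against 21038 for CAMTA1. The counts also leave out sites with more lists, such as 4595 that held both fusions, CAMTA1 and TFE3. They do not measure all that a list shared with the fusions. The set of both fusions and CAMTA1 was the largest of the 35 sets of exactly 3 lists, and remained so when every list was reduced to the 152702 peaks with the highest summit values. With list lengths made equal in this way, which does not equalise read depth, it held 2235 sites, 2.48 times the number with YAP5SA. Over all alternatives this ratio ran from 2.05, with fixed windows around summits, to 3.52, without peaks whose summit −log10 p was under 5. The sites behind the ratio changed with the setting. Of the 7996 members, 1421 overlapped one of the 2235 sites, and 131 overlapped one of the 5120 found without summits under 5.

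**Figure D1:**
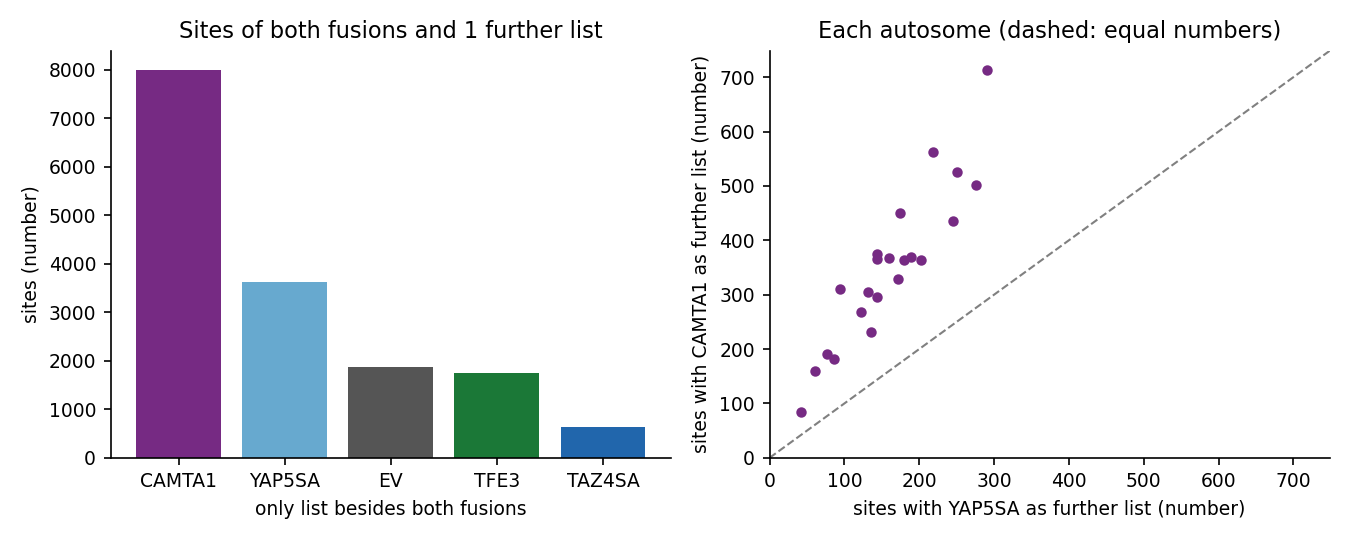
Left, number of merged sites that held a peak of both fusions and of exactly 1 further list, by that list. Right, the numbers with CAMTA1 (vertical axis) and with YAP5SA (horizontal axis) on each of 22 autosomes, 1 point per autosome; all 22 points lie above the dashed line of equal numbers, with ratios from 1.70 to 3.31.

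The larger number with CAMTA1 was spread over the autosomes, and chromosome X was not compared. On each of the 22 autosomes the sites with CAMTA1 outnumbered those with YAP5SA, with a ratio of 1.70 on chromosome 14, 3.31 on chromosome 10 and a median of 2.16. Autosomes share the same libraries and are not replicates.

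Most sites with both fusions and none of the 4 other lists had no CAMTA1 peak, but many had one. Among the sites without a peak of the 4 other lists, 19726 held both fusions, and 40.5% of them (39.9 to 41.2%) also held a CAMTA1 peak. Of the 15056 that held TAZ-CAMTA1 and CAMTA1, 53.1% (52.3 to 53.9%) also held a YAP-TFE3 peak. Of the 13349 that held YAP-TFE3 and CAMTA1, 59.9% (59.1 to 60.7%) also held TAZ-CAMTA1. These shares were far lower than where all 4 other lists held the site. There, 60372 sites held all 3 lists, while 242 lacked only CAMTA1, 260 only YAP-TFE3 and 195 only TAZ-CAMTA1. Seen from a single list, members made up 19.3% of the 41447 CAMTA1 sites that lacked those 4 lists, 14.5% of the 55104 YAP-TFE3 sites and 13.0% of the 61577 TAZ-CAMTA1 sites.

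Most members were weaker than the usual peak of their lists. The summit −log10 p, the caller's statistic at the highest point of a peak, had a median of 4.21 in the TAZ-CAMTA1 list (quartiles 3.81 and 4.73, highest 8.55), 4.30 in the YAP-TFE3 list (3.86 and 4.88, highest 11.3) and 4.15 in the CAMTA1 list (3.82 and 4.62, highest 7.30). The whole lists had medians of 4.69, 4.87 and 4.80. Thus 73.3% of members lay below the median of the TAZ-CAMTA1 list, 74.1% below that of the YAP-TFE3 list and 82.5% below that of the CAMTA1 list. All 3 peaks reached a summit −log10 p of 4 at 2287 members (28.6%), of 5 at 131 (1.64%) and of 6 at only 3. In at least 1 of the 3 lists, 5 was reached at 3019 members (37.8%).

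The area under the curve, the caller's measure for a peak as a whole, gave the same order of strength between CAMTA1 and the fusions. Its median was 83.6 in the TAZ-CAMTA1 list, 83.8 in the YAP-TFE3 list and 63.9 in the CAMTA1 list, where the whole lists had medians of 142, 154 and 140. The largest of the 3 areas was in the YAP-TFE3 list at 38.9% of members (37.8 to 40.0%), in the TAZ-CAMTA1 list at 37.6% (36.5 to 38.7%) and in the CAMTA1 list at 23.5% (22.6 to 24.5%). Areas are not normalised between lists. Ranked as a percentile within its own list, the peak stood highest in TAZ-CAMTA1 at 38.9% of members, in YAP-TFE3 at 36.0% and in CAMTA1 at 25.1%, so that the order of the fusions was exchanged while CAMTA1 remained the lowest of the 3.

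**Figure D2:**
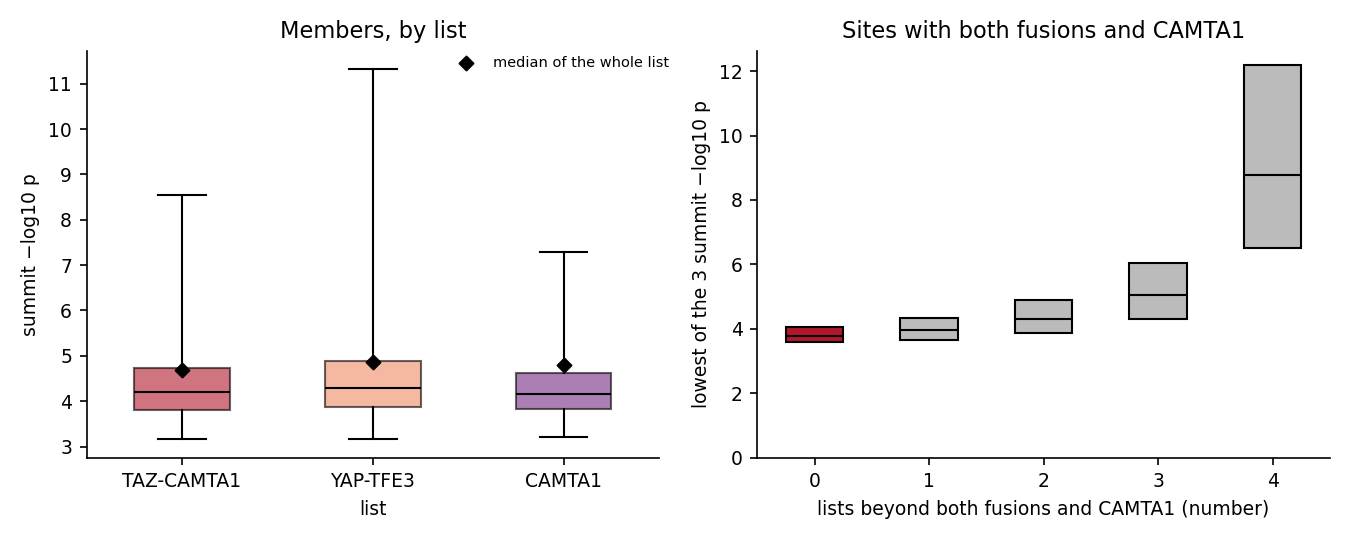
Left, summit −log10 p of the 7996 members in each of their 3 lists; boxes give the quartiles and median, whiskers the lowest and highest member, diamonds the median of all peaks of the list, which lies above the members' median in each. Right, quartiles and median of the lowest of the 3 summit values, for sites that held both fusions and CAMTA1, by the number of lists held besides; the median runs from 3.78 for members (red, 0 further lists) to 8.77 for sites in all 7 lists.

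The strength of a member in one list said little about its strength in another. Over the 7996 members the Spearman correlation of the areas was 0.242 between the fusions, 0.194 between YAP-TFE3 and CAMTA1 and 0.178 between TAZ-CAMTA1 and CAMTA1. These values describe sites of a narrow range of strength that was fixed by the selection.

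Members stood at the lower end of a graded series of sites. Both fusions and CAMTA1 were all present at 123587 sites, of which members were 6.47%, while 13646 held 1 further list, 17665 held 2, 23908 held 3 and 60372 were open in all 7 lists. The median of the lowest of the 3 summit values was 3.78 for members, 3.95 with 1 further list, 4.30 with 2, 5.06 with 3 and 8.77 with all. Site width followed, from a median of 206 bp for members to 269, 366, 524 and 1226 bp. When exactly 1 further list held the site, it was most often YAP5SA (5442 sites) or TFE3 (4595), less often EV (2755) and least often TAZ4SA (854).

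The line between members and these sites was set by weak peaks. Among the sites with 1 further list, the median area of the peak in that list was 56.4 (quartiles 34.4 and 97.9), where the lowest area in any list was 20.0. The lowest summit −log10 p differed by list. It was 3.05 in TAZ-CAMTA1, 3.07 in YAP-TFE3 and 3.11 in CAMTA1. In the excluded lists it was 3.15 (YAP5SA), 3.22 (TFE3), 3.28 (EV) and 3.38 (TAZ4SA). Presence and absence of weak peaks were thus not called at the same summit value in all lists. Just inside the rule, a member of 100 bp on chromosome X from 129301403 to 129301502 had a YAP-TFE3 area of 20.0, beside 77.5 in TAZ-CAMTA1 and 34.8 in CAMTA1. Members on chromosome 11 from 15796654 to 15796901 and from 1799663 to 1800141 each had a CAMTA1 area of 20.0. Just outside it, a site on chromosome 20 from 11357457 to 11357605 had areas of 91.1 (TAZ-CAMTA1), 127 (YAP-TFE3) and 21.8 (CAMTA1) and was left out for a TAZ4SA peak of area 20.0. A YAP5SA peak of 20.0 left out a site on chromosome 8 from 22090211 to 22090408, and a TFE3 peak of 20.0 left out 1 on chromosome 1 from 95390334 to 95390448.

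Members were chosen by overlap, and within them the 3 lists covered a median of 43.6% of the site at once (quartiles 25.9 and 61.4%). At 7677 members (96.0%) some stretch was covered by peaks of all 3 lists at once, with a median length of 86 bp (quartiles 66 and 104 bp), and at 319 members (3.99%) there was no common base. The outermost of the 3 summits lay a median of 43 bp apart (quartiles 19 and 83 bp), and at 56.4% of members within 50 bp. By pairs the median distance was 20 bp between the fusions, 22 bp between TAZ-CAMTA1 and CAMTA1 and 23 bp between YAP-TFE3 and CAMTA1. The largest such distance was 1096 bp, and 84.4% of members had all summits within 150 bp. The overlap of narrow peaks that the rule requires limits these distances.

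Member sites were from 70 to 1511 bp wide, with a median of 206 bp and quartiles of 141 and 320 bp. Within them the peaks had a median width of 136 bp for TAZ-CAMTA1, 126 bp for YAP-TFE3 and 110 bp for CAMTA1, against 203, 192 and 194 bp in the whole lists. A single peak per list made up 7329 members (91.7%), and the others were chains of up to 8 peaks. Only 563 members (7.04%) were 500 bp or wider. Members were wider than sites of 2 of their lists only, whose median was 149 bp for both fusions, 139 bp for TAZ-CAMTA1 and CAMTA1, and 143 bp for YAP-TFE3 and CAMTA1. Their summit values were also higher, at a median of 4.21 against 3.95 and 3.94 in the TAZ-CAMTA1 list, 4.30 against 4.05 and 4.02 in the YAP-TFE3 list, and 4.15 against 3.96 and 3.98 in the CAMTA1 list. All of these values belong to peaks that the rule selected.

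The strongest members were those in which the smallest of the 3 areas was largest. The first lay on chromosome 5 from 150153671 to 150154058, with areas of 385 in TAZ-CAMTA1, 884 in YAP-TFE3 and 437 in CAMTA1 and summit −log10 p values of 6.17, 8.66 and 6.66. Its nearest peak of an excluded list was a YAP5SA peak 3634 bp away, and its nearest site open in all 7 lists was 3250 bp away. All 3 lists were thus well above their own medians at a place with no call in the other 4.

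The second lay on chromosome 1 (19641557 to 19642796), and its areas were 355, 753 and 512 in the same order. Its CAMTA1 peak was 1054 bp wide where the TAZ-CAMTA1 and YAP-TFE3 peaks were 350 and 445 bp wide, and a TFE3 peak lay 398 bp away. The third lay on chromosome 16 (65969740 to 65970433), 30368 bp from a site in all 7 lists, and its areas were 680, 511 and 340. The fourth lay on the same chromosome (29352292 to 29352650), its areas were 451, 582 and 337, and its 3 summits lay within 3 bp of each other. The fifth lay on chromosome 3 (64338758 to 64339272), only 114 bp from a site in all 7 lists, and its areas were 447, 324 and 432.

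Ranked by the lowest summit value instead, the leader by area came second, 1 member not yet named stood above it, and the next 2 below it. A member of 199 bp on chromosome 10 from 11377996 to 11378194 had summit −log10 p values of 7.12 in TAZ-CAMTA1, 6.18 in YAP-TFE3 and 6.34 in CAMTA1, with a TFE3 peak 363 bp away and no 7-list site within 156995 bp. On chromosome 5, a member from 148557523 to 148558165 had values of 6.53, 6.68 and 6.04. The remaining member, on chromosome 5 from 69150567 to 69150933, had values of 5.93, 6.14 and 6.58, with CAMTA1 the highest. The first 2 of these and the strongest by area were the 3 members at which all lists reached 6.

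A small number of members were far stronger in 1 list than in the others, and this list was mostly YAP-TFE3. A summit −log10 p at least 2 above both others was seen in YAP-TFE3 at 142 members (1.78%), in TAZ-CAMTA1 at 26 and in CAMTA1 at 14. This limit was chosen after the values were seen, and the same count was not made over other sites. YAP-TFE3 also had the highest median summit over the whole lists, at 4.87 against 4.69 in TAZ-CAMTA1 and 4.80 in CAMTA1. At sites in all 7 lists the medians were 10.2, 9.64 and 9.52. Whether the larger number in YAP-TFE3 is particular to members was not tested. The most extreme, on chromosome 11 from 114835213 to 114836083, had a value of 11.3 in YAP-TFE3, 5.34 in TAZ-CAMTA1 and 3.58 in CAMTA1, and areas of 2545, 383 and 31.4. The largest area of any member, 3700 in YAP-TFE3, was on chromosome 3 from 189489428 to 189490731, beside 624 in TAZ-CAMTA1 and 162 in CAMTA1. Here the nearest site in all 7 lists was 90095 bp away and the nearest excluded peak, of TAZ4SA, 33377 bp. In the opposite direction, TAZ-CAMTA1 had 8.55 on chromosome 9 from 91416217 to 91416702, against 5.86 in YAP-TFE3 and 3.37 in CAMTA1. CAMTA1 had its own extreme on chromosome 16 from 27314773 to 27315689, at 7.24 against 4.66 in TAZ-CAMTA1 and 4.48 in YAP-TFE3.

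The next comparison asked where members lay relative to sites open in all 7 lists, which mark chromatin that is accessible whatever the vector. The median distance was 4425 bp (quartiles 735 and 15873 bp) for the 7995 members with such a site on their chromosome or contig. Within 1 kb lay 2234 members (27.9%), where the share among all sites not in all 7 lists was 23.0%. Within 10 kb lay 5268 (65.9%, 64.8 to 66.9%), where the share among those sites was 61.9%, and 26.8% of all bases of chromosomes 1 to 22 and X lay that near. The shares of members thus lay a few percentage points above that background. They fell with it when peaks whose summit −log10 p was under 5 were left out, to 49.5% of members and 46.6% of the background within 10 kb, with a median distance of 10213 bp for members. With fixed windows around summits the direction turned, at 58.5% of members and 59.8% of the background, and the median distance of members rose to 6905 bp; with merging over 200 bp it was 7164 bp.

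The classes with 2 of the same lists lay on either side. Within 10 kb of a site in all 7 lists were 69.9% of TAZ-CAMTA1 and CAMTA1 sites (68.8 to 71.0%), 64.2% of sites of both fusions (63.3 to 65.1%) and 60.1% of YAP-TFE3 and CAMTA1 sites (58.8 to 61.4%). The share of members, at 65.9%, was nearest to that of both fusions. Sites of 1 list only had 60.3% within this distance, at a median of 6333 bp.

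**Figure D3:**
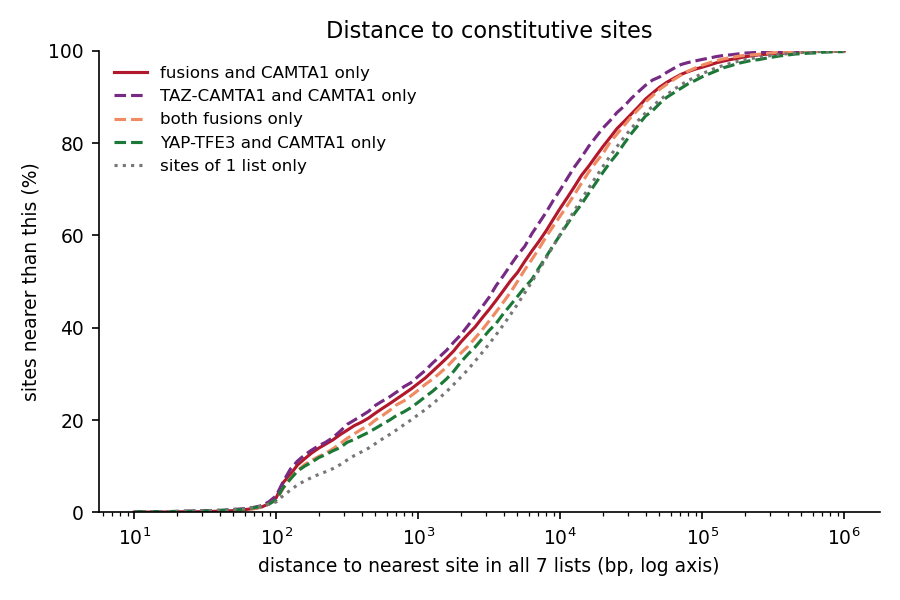
Share of sites (vertical axis, %) that lay nearer to a site in all 7 lists than the distance on the horizontal axis (bp, log axis), for members (solid red), the 3 classes with 2 of their lists (dashed) and sites of 1 list only (dotted). The curve of members lies between those of TAZ-CAMTA1 and CAMTA1 and of YAP-TFE3 and CAMTA1 and runs close to that of both fusions.

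Width and strength of members changed little with this distance, except in YAP-TFE3. Under 1 kb, between 1 and 10 kb, between 10 and 100 kb and at 100 kb or more the median width was 199, 221, 198 and 194 bp. The median summit −log10 p in TAZ-CAMTA1 was 4.17, 4.22, 4.22 and 4.17, and in CAMTA1 4.14, 4.14, 4.17 and 4.12. In YAP-TFE3 it was 4.20, 4.29, 4.35 and 4.69, and YAP-TFE3 had the highest summit at 37.1, 39.3, 41.6 and 51.9% of members. At 100 kb or more lay 285 members (3.56%), where the share among all sites not in all 7 lists was 4.33%. It was 3.12% for sites of both fusions only, 1.88% for TAZ-CAMTA1 and CAMTA1 and 5.64% for YAP-TFE3 and CAMTA1. These 285 members included 20 of the 142 that were far stronger in YAP-TFE3, a count not made over other sites. In the other classes with YAP-TFE3 the sites at 100 kb or more had medians of 4.22 (both fusions) and 4.29 (YAP-TFE3 and CAMTA1), against 4.03 and 4.01 for nearer ones, and over all YAP-TFE3 sites not in all 7 lists the values were 4.42 and 4.34.

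The nearest peak of the 4 excluded lists was a median of 569 bp away, within 1 kb at 4743 members (59.3%) and within 10 kb at 7230 (90.4%), and within 100 bp at 395 (4.94%). The share within 1 kb was 58.8% for sites of both fusions only, 65.1% for TAZ-CAMTA1 and CAMTA1 and 55.8% for YAP-TFE3 and CAMTA1, on either side of that of members. For members it fell to 28.1% when peaks with summits under 5 were left out and to 36.6% with merging over 200 bp. By list, the median distance was 1159 bp to a YAP5SA peak, 1490 bp to TFE3, 1645 bp to EV and 2796 bp to TAZ4SA. YAP5SA was the nearest at 40.3% of members, TFE3 at 27.8%, EV at 21.4% and TAZ4SA at 10.6%. YAP5SA also had the longest list of these 4 and TAZ4SA the shortest. TFE3 had fewer peaks than EV and was nearest more often. Its peaks were wider, with a median of 217 bp against 180 bp, and covered more bases (72931288 against 70596855). Whether width or coverage bears on which list was nearest was not tested. Within 10 kb, where 90.4% of members had an excluded peak, the share was also 90.4% for sites of both fusions only. It was 93.5% for TAZ-CAMTA1 and CAMTA1 and 88.5% for YAP-TFE3 and CAMTA1. The 766 members (9.58%) with no excluded peak within 10 kb had a median lowest summit value of 3.84, against 3.78 for the rest.

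**Figure D4:**
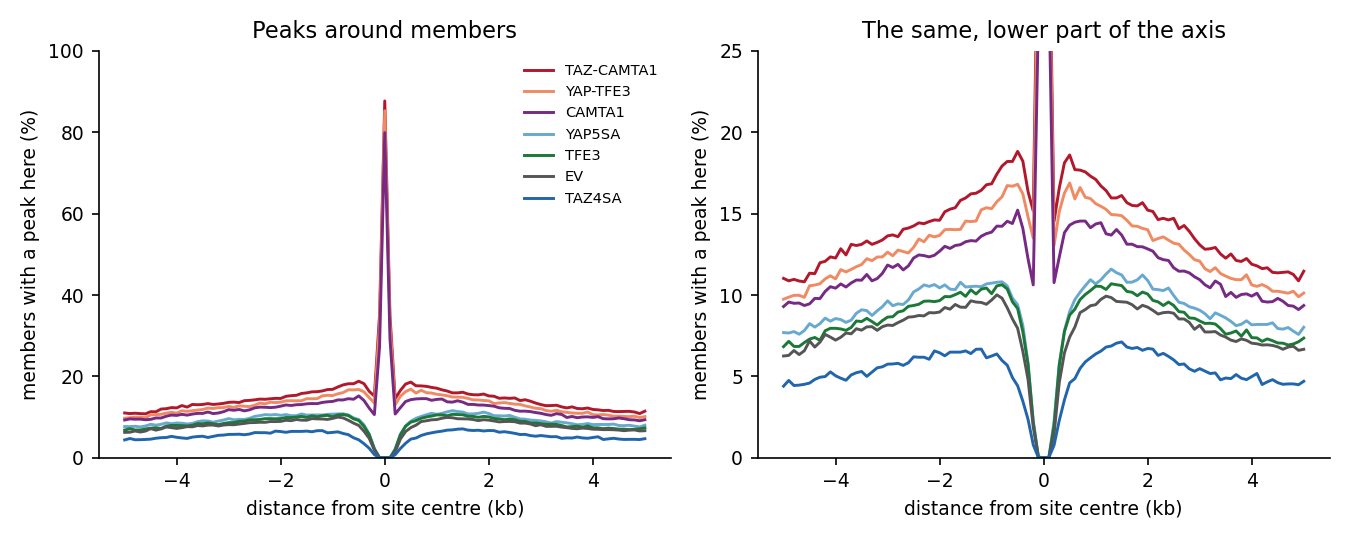
Share of the 7996 members (vertical axis, %) with a peak of each list at a given distance from the site centre (horizontal axis, kb; steps of 100 bp); the right panel enlarges the lower part. The 4 excluded lists are at 0 in the centre by construction and reach between 6.32% (TAZ4SA) and 10.7% (YAP5SA) at 1 kb. The 3 lists of the members stay above them on both flanks, and these 3 lists also cover more of the genome.

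The flanks of members carried more peaks of every list than the genome at large. The same profile was not made around other sites, so whether this is particular to members was not tested. Sites in general lay near each other: 61.9% of all sites not in all 7 lists were within 10 kb of a 7-list site, against 26.8% of bases. At 1 kb from the centre a TAZ-CAMTA1 peak was present at 17.0% of members, a YAP-TFE3 peak at 15.5% and a CAMTA1 peak at 14.1%. The excluded lists had 10.7% (YAP5SA), 10.3% (TFE3), 9.55% (EV) and 6.32% (TAZ4SA) at that distance. At 5 kb the values were 11.2, 9.93 and 9.32% for the first 3 and from 4.55 to 7.85% for the others. Of all bases, TAZ-CAMTA1 covered 3.68%, YAP-TFE3 3.37% and CAMTA1 3.18%. YAP5SA covered 2.81%, TFE3 2.36%, EV 2.28% and TAZ4SA 1.71%, so the lists with more peaks on the flanks were also those that covered more bases. The nearest site of any kind was a median of 183 bp away. It was a site in all 7 lists at 21.6% of members, where these were 16.2% of all sites, another member at 3.75%, where members were 2.15%, and a site of 1 list at 32.7%, where such sites were 42.3%.

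Members were spread over all chromosomes but Y, with 7993 on chromosomes 1 to 22 and X, 3 on unplaced contigs and 0 on Y. Chromosome 1 held the most (713), followed by chromosomes 2 (562) and 7 (525), and chromosome 21 the fewest (85). Their number followed that of sites in all 7 lists, with a Spearman correlation of 0.936 over 23 chromosomes, which share libraries and differ in length. There were 13.3 members per 100 sites in all 7 lists over these chromosomes, 9.84 on chromosome 5 at the lower end, and 18.0 on chromosome 22 and 18.6 on chromosome 10 at the upper end. As a share of all sites, members were fewest on chromosomes 13 (1.23%) and 5 (1.26%), where sites of a single list were numerous (7648 of 14772 and 19660 of 39892), and most frequent on chromosomes 10 (3.24%) and X (3.17%).

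Most members stood alone. The nearest other member was a median of 59151 bp away, and 17.8% had one within 10 kb, against 26.3% for sites of both fusions only, 18.9% for TAZ-CAMTA1 and CAMTA1 and 14.7% for YAP-TFE3 and CAMTA1, classes of different size. Of the 2826 bins of 1 Mb that held any site, 2071 (73.3%) held a member, with a median of 2, and 112 held 10 or more. The fullest bin, on chromosome 4 from 189000001 to 190000000, had 24 members among 271 sites, of which only 17 were in all 7 lists. When members under 20 kb apart were joined, 72.5% remained single and 13 chains had 5 members or more. The chains were looked at after the distribution was known.

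The longest chain covered 53.4 kb on chromosome 11 from 35199286 to 35252642 and had 11 members, from 160 to 1019 bp wide. Within it the YAP-TFE3 list had 44 peaks, CAMTA1 40 and TAZ-CAMTA1 39, while TFE3 had 17, YAP5SA 7, EV 5 and TAZ4SA 1. Peaks covered 28.3% of the stretch in YAP-TFE3, 21.0% in CAMTA1 and 19.7% in TAZ-CAMTA1, and 7.47, 3.70, 2.01 and 1.57% in TFE3, YAP5SA, EV and TAZ4SA. The flank of equal length on the lower-coordinate side was open in all lists, with 39 peaks in YAP-TFE3, 33 in EV and 25 in TAZ4SA. On the other side the numbers were low, from 4 in TAZ4SA to 15 in both fusions.

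At 6 of its 11 members the area was above the whole-list median in at least 1 list, most often in YAP-TFE3 (4 members), then in CAMTA1 (3) and TAZ-CAMTA1 (1). The widest, from 35199286 to 35200304, had areas of 69.9 in TAZ-CAMTA1, 619 in YAP-TFE3 and 184 in CAMTA1. At the member from 35245949 to 35246275 CAMTA1 was the highest, with an area of 308 against 229 in YAP-TFE3 and 64.1 in TAZ-CAMTA1. TAZ-CAMTA1 had the largest area at the member from 35230792 to 35231313, at 227, against 120 in YAP-TFE3 and 100.2 in CAMTA1. The lists therefore differed in which member of the chain was strongest.

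The next 2 chains lay side by side on chromosome 4, in the fullest bin named above, with 8 and 7 members. Together they spanned 122 kb from 189019175 to 189141255 with 15 members of 85 to 844 bp. YAP-TFE3 had 53 peaks in this stretch, TAZ-CAMTA1 50 and CAMTA1 30, and no other list had more than the 5 of YAP5SA, with 4 in TFE3, 3 in EV and 3 in TAZ4SA. Both flanks of equal length were sparse in all lists, with 0 EV peaks on the lower-coordinate side and 6 on the other, and at most 14 peaks in any list. This stretch too was chosen for its members, so part of the contrast between the lists is built in. No site in this stretch was in all 7 lists.

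The members of this stretch had a median summit −log10 p of 3.96 in TAZ-CAMTA1, 4.76 in YAP-TFE3 and 4.15 in CAMTA1. The largest area was 523 in YAP-TFE3, at the member from 189100354 to 189101197, beside 115 in TAZ-CAMTA1 and 91.6 in CAMTA1. TAZ-CAMTA1 was highest at the member from 189060373 to 189061190, with an area of 260 against 31.6 in YAP-TFE3 and 135 in CAMTA1. The nearest 7-list site to any of its members was 62489 bp away.

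**Figure D5:**
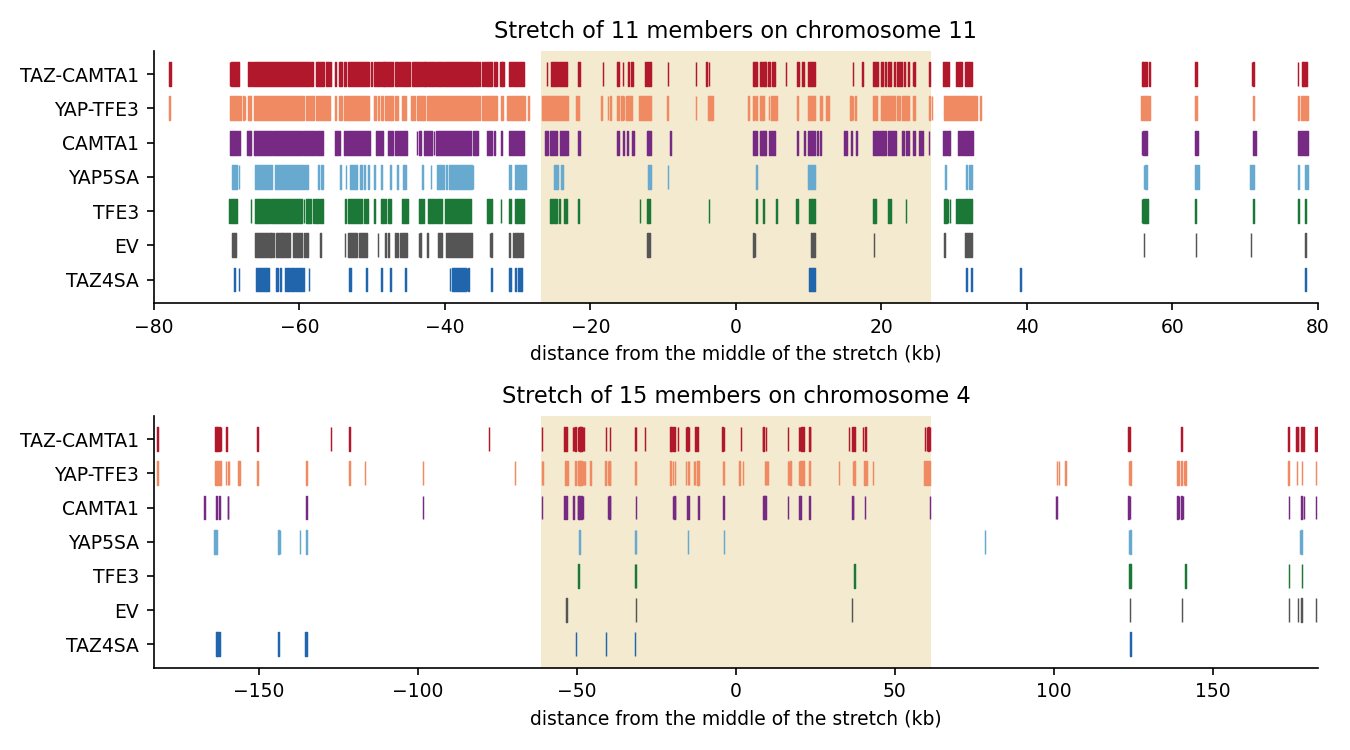
Peaks of each list (rows) by distance from the middle of the stretch (kb) for the stretches with the most closely spaced members, on chromosome 11 (top) and chromosome 4 (bottom); shading marks the stretch, the unshaded parts its flanks, and each bar is a peak, drawn with a minimum line width. Inside the shading the upper 3 rows hold 39 to 44 peaks on chromosome 11 and 30 to 53 on chromosome 4, and the lower 4 rows 1 to 17 and 3 to 5. Part of this contrast follows from choosing the stretches by their members.

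The remaining members named here were extremes of width or position. The widest member, 1511 bp on chromosome 22 from 21351742 to 21353252, was a chain of 6 peaks whose CAMTA1 part was 143 bp wide with an area of 39.7, beside 382 in TAZ-CAMTA1 and 274 in YAP-TFE3. The member farthest from a site in all 7 lists, 1558271 bp away on chromosome X from 32466639 to 32466786, had areas of 121, 54.1 and 20.8 in TAZ-CAMTA1, YAP-TFE3 and CAMTA1 and nevertheless an EV peak 499 bp away. The member farthest from any excluded peak, 593334 bp, was on chromosome 11 from 24518428 to 24518740 and had areas of 28.0, 59.4 and 97.9.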

How the data were processed

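ATAC-seq was performed on 20 libraries from SW872 cells with 7 vectors. Per the methods of the study, the authors trimmed reads with NGmerge, aligned them as for their ChIP-seq (BWA-MEM, hg19) and called peaks with Genrich in ATAC-seq mode, without PCR duplicates and blacklisted regions. The submitters' processing notes name Bowtie 0.12.2 and build mm8 with no role. On 15 of 24 chromosomes peaks ran past the end of the hg38 sequence, so the hg38 genome and annotation at hand were not used, and genes and sequences at the sites were not analysed here. The methods describe calls per replicate, while the files hold 1 list per vector.

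The authors deposited for each peak a signal (the caller's area under the curve, called the area), the summit −log10 p, the summit −log10 q and a capped score. The last 2 were not used. The area need not be a plain sum of −log10 p over the peak. A YAP-TFE3 peak 46 bp wide with a summit −log10 p of 3.50 had an area of 20.0. The lists are not normalised to each other, and a list with more reads can hold more weak peaks.

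Peaks overlapping by at least 1 bp were merged with Python 3.11.15 and pandas 2.3.3; the sites differed from those of bedtools 2.31.1 by 0. Merging and distances were tested on simulated data. Where a list had several peaks in a site, its highest value was taken. Distances are in bp between edges, and starts count from 1. Sites were named by fixed rules: the 5 with the largest smallest area, the next 3 by lowest summit value, the widest, the most remote from 7-list sites and from excluded peaks, and 3 on each side of the rule. Other sites were chosen after their values were seen, as were the limit for members far stronger in 1 list and the 20 kb for chains. The members and lists were chosen with earlier results of these data known. No test across sites was run, since each vector has 1 list and sites are not replicates. Alternatives were stricter summit values, equal list lengths by summit value or area, fixed windows reaching 250 bp on either side of a summit, merging across 200 bp or of adjoining peaks, a base common to all lists of the site, and autosomes only.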

Additional observations from a re-analysis of the deposited data

How the results depend on the processing

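The set of both fusions and CAMTA1 ranked first of the 35 sets of 3 lists under all 9 alternatives, of which merging adjoining peaks (7995 members), and the recomputing of the ratio to YAP5SA and of the values of the compared sites under each, were chosen after seeing the data. Which sites were members depended strongly on the calling: of the 7996, 2287 remained with summit −log10 p of at least 4, 131 of at least 5, 1421 with lists cut to equal length by summit value, 1496 with the same by area, 4685 with fixed windows and 4989 with peaks up to 200 bp apart merged. Stricter lists also turn stronger sites into members by removing their excluded peaks. The values in the order summit −log10 p of at least 4, of at least 5, equal numbers by summit value, by area, fixed windows and merging over 200 bp were as follows. The number of members was 5351, 5120, 2235, 2359, 5287 and 5359. Their share of all sites was 2.03, 3.58, 0.882, 0.949, 1.90 and 2.01%, and 2.06% when a base common to the 3 lists was required. The ratio to sites with YAP5SA was 2.39, 3.52, 2.48, 2.57, 2.05 and 2.15. The median distance to a 7-list site was 6214, 10213, 5716, 5454, 6905 and 7164 bp, and the share within 10 kb 60.5, 49.5, 61.2, 62.7, 58.5 and 58.3%; among all sites not in 7 lists it was 57.9, 46.6, 58.9, 58.9, 59.8 and 56.1%. An excluded peak lay within 1 kb at 47.4, 28.1, 51.2, 49.6, 40.0 and 36.6% of members. By construction, fewer peaks leave fewer neighbours, and wider merging joins members to them; further causes were not tested. With autosomes only, 7751 members remained. Of the 90 other values (widths, summit values, areas and shares by list), 50 moved beyond counting error and 40 did not. No paired analysis was possible because each vector has a single list without replicate values, and for the same reason no library could be left out. The gene and sequence results planned for an hg19 reference were not run. Unknown read depth limits every comparison between lists.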
